A study of Homo sapiens with 3 samples.

Results

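A set of 10 genes that mark the epithelial or the mesenchymal state of a cell, or set that state, was followed in 22Rv1 cells. They are CDH1, EPCAM, ESRP1, CDH2, VIM, TWIST1, SNAI1, SNAI2, ZEB1 and ZEB2. The genes were chosen by name, and the rows carrying their Ensembl identifiers were read from each file. All 10 had 1 row each, out of 27024 counted genes. 22Rv1 is an established human prostate carcinoma line. RNA-seq was analysed for 1 group of 3 libraries, 22Rv1 WT replicates 1 to 3, which the study used as controls. They carry no edit and are homozygous for the non-risk allele of the prostate cancer risk SNP under study. The study asked, among other questions, whether edits at that SNP shift these cells along the epithelial-mesenchymal axis. No edited cells were analysed here, so the values describe the WT state and no condition is compared with another. The sources describe the WT replicates in different words, as control clones and as biological replicates, so the spread between them may be that of clones or of cultures.

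In epithelial-mesenchymal transition (EMT), cells give up the E-cadherin junctions that hold an epithelial sheet together and take on a motile, spindle-shaped form with N-cadherin and vimentin. A small set of DNA-binding repressors of the SNAI, ZEB and TWIST families drives the change, in large part by silencing CDH1. The miR-200 family of microRNAs holds ZEB1 and ZEB2 down in epithelial cells, and the ZEB proteins in turn repress the miR-200 genes. ESRP1 and ESRP2 keep many transcripts in their epithelial splice form and are lost when cells turn mesenchymal.

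The libraries held 38252744, 35675670 and 38629080 reads on counted genes. Normalized counts are the authors' values, namely reads divided by a size factor for each library. Levels of different genes are compared only per length, as TPM (transcript abundance scaled to the library), computed from the recovered reads over the canonical transcript of each gene. A gene was called expressed at 1 CPM (count scaled to the library size) or more in all 3 libraries, which held for 63.8% of protein-coding genes. The label of the line was borne out by its markers. All 8 markers of prostate luminal epithelium were expressed, from KLK3, the gene of prostate-specific antigen, at 17.2 ± 1.46 TPM to KRT8, a luminal keratin, at 1046 ± 20.7 TPM (SD, n = 3). With all exons merged KRT18 was the highest, at 757 TPM. The basal markers KRT5, KRT14 and TP63 had 0 reads in each library, which allows up to 3 reads. The summed level of the endothelial markers lay between 0.0131 and 0.0627 TPM, of the leukocyte markers between 4.04 and 5.04 TPM, and of the fibroblast markers between 8.23 and 8.95 TPM. Of 5 leukocyte markers, CD68 was expressed, at 101, 72 and 75 reads, and the defining gene PTPRC had 1, 0 and 1 reads. Of 8 fibroblast markers, the 2 expressed were LUM, at 179, 192 and 226 reads, and COL1A1, at 352, 288 and 332 reads. COL1A2, whose protein pairs with that of COL1A1 in type I collagen, had 0, 1 and 0 reads. The part of other cells in the mesenchymal genes was not tested.

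The epithelial members stood far above the mesenchymal ones. CDH1, EPCAM and ESRP1 together made up 87.9% ± 0.378 of the summed TPM of the 10 genes (SD, n = 3). On the log2 scale the 3 epithelial genes exceeded the other 7 by 2.87 ± 0.05, a ratio of 7.30. In order of level per length, the genes ran CDH1, EPCAM, ESRP1, TWIST1, VIM, CDH2, SNAI1, ZEB1, SNAI2 and ZEB2. Down to SNAI1, the lowest library of each gene lay above the highest library of the next, but with all exons merged as the length CDH2 and SNAI1 overlapped. The last 3 genes overlapped, and their order cannot be told. Of the 10 genes, 6 were expressed, against the 63.8% of all protein-coding genes. The 4 that were not are all EMT repressors.

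**Figure D1:**
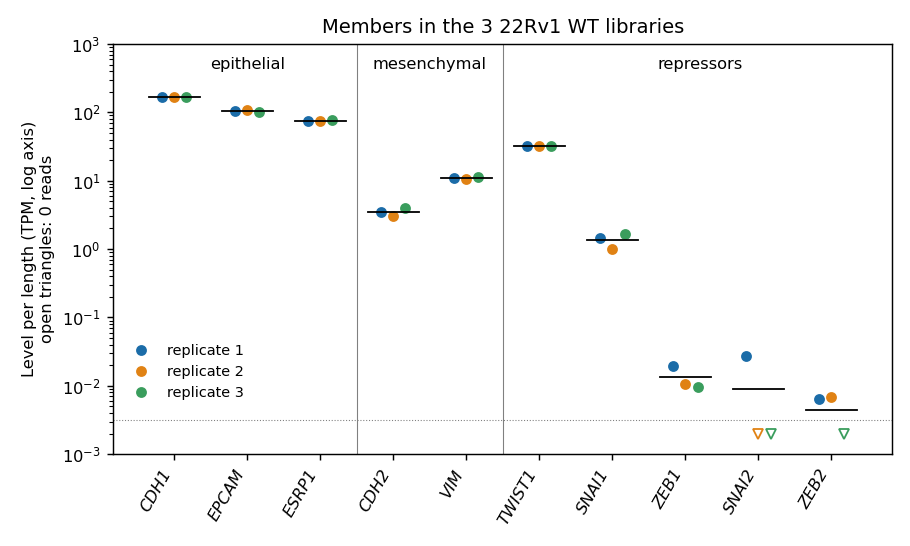
Level per length (TPM, log axis) of the 10 genes in each 22Rv1 WT library. Points are libraries, bars are means, and open triangles mark 0 reads. CDH1 lies between 166 and 169 TPM, VIM and CDH2 between 3.08 and 11.3 TPM, and ZEB1, SNAI2 and ZEB2 below 0.03 TPM.

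CDH1 encodes E-cadherin, the calcium-dependent adhesion molecule of epithelial junctions. It lies on the plus strand of chromosome 16, at 68771195 to 68869440 (GRCh37). Its normalized count was 10872.1, 10857.4 and 10932.8 in replicates 1, 2 and 3, or 10887 ± 40.0 (SD, n = 3). The 3 libraries are nearly level, with an SD of 0.367% of the mean against a median of 5.56% over all tested genes. That median takes in genes averaging as few as 10 reads, whose counting noise is larger. The dispersion trend of edgeR at the level of CDH1 was 3.70%, counting noise left out. On the log2 scale its 95% counting error was 0.0240 to 0.0250 per library. The deviations from the mean were smaller, 0.0060 at most, so the small SD lies within what the sampling of reads alone gives. Per length CDH1 stood at 168 ± 1.33 TPM, above 94.5% of protein-coding genes. No other of the 10 genes was as high in any library.

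EPCAM encodes a homophilic adhesion glycoprotein of epithelial cells that is widely used to capture carcinoma cells. The gene is on the plus strand of chromosome 2, at 47572297 to 47614740. The normalized counts were 2156.9, 2252.7 and 2139.8, with replicate 2 the highest. Per length the gene stood at 105 ± 4.01 TPM (SD, n = 3), and it was 0.623 times as high as CDH1. Among the partners of EPCAM at the cell surface, SPINT2, a protease inhibitor of epithelia, stood at 501 ± 13.2 TPM and CLDN7, a tight junction claudin that binds EPCAM, at 486 ± 4.12 TPM. With all exons merged as the length CLDN7 was the higher, at 572 TPM beside 316 TPM. EPCAM itself lay above 91.0% of protein-coding genes.

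ESRP1 encodes an RNA-binding protein that directs epithelial splicing. Its locus is on the plus strand of chromosome 8, at 95653302 to 95719694. Its normalized counts were 3813.6, 3789.5 and 3982, with replicate 3 the highest. Per length it stood at 76.0 ± 1.23 TPM (SD, n = 3), above 87.5% of protein-coding genes. ESRP2, its paralog, stood at 88.3 ± 2.86 TPM. The log2 ratio of ESRP2 to ESRP1 was 0.22 ± 0.07 with the canonical transcript as the length and -0.01 ± 0.07 with all exons merged, so their order depends on the length taken. Among 7 genes that are spliced by ESRP1 or encode splicing factors opposing it, 6 were expressed. RBFOX2, a splicing factor that favours mesenchymal forms of several transcripts, stood at 38.4 ± 3.30 TPM. It was the highest of the list with the canonical transcript as the length, but with all exons merged it lay at 42.7 TPM, below ARHGEF11 at 53.5 and ENAH at 51.6. The lowest was FGFR2, the receptor gene whose mutually exclusive exons are the classical ESRP target, with 1, 0 and 0 reads. Gene totals do not show which splice form was made, and no exon was measured.

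CDH2 encodes N-cadherin, the cadherin that replaces E-cadherin on mesenchymal and many neural cells. It lies on the minus strand of chromosome 18, at 25512843 to 25757910. The normalized counts were 187.2, 165 and 216.5, with replicate 2 the lowest and replicate 3 the highest. Per length it stood at 3.50 ± 0.436 TPM (SD, n = 3), above 43.8% of protein-coding genes. CDH1 exceeded CDH2 by 5.59 ± 0.19 on the log2 scale of TPM, which is 48.2-fold, and 81.6-fold with all exons merged as the length. The fold was 48.5, 54.9 and 42.2 in replicates 1, 2 and 3, lowest where CDH2 was highest.

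CDH1 and CDH2 are 2 of 18 classical cadherins, which share a cytoplasmic tail that binds catenins. CDH1 held 67.4% ± 0.663 of the summed TPM of the family and CDH2 held 1.40% ± 0.172 (SD, n = 3). The highest of the other 16 was CDH24, a type II cadherin, at 38.8 ± 1.15 TPM and 15.6% of the family. CDH3, the gene of P-cadherin, was named after its values were seen. It stood at 29.4 ± 0.608 TPM, 8.44 times the level of CDH2. Of these 16 genes, 6 were expressed, and CDH5, CDH9 and CDH20 had 0 reads in each library. CDH2 came behind CDH1, CDH24 and CDH3 in level, and with all exons merged as the length CDH7 and CDH6 also lay above it, at 3.66 and 3.47 TPM beside 3.11 TPM.

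**Figure D2:**
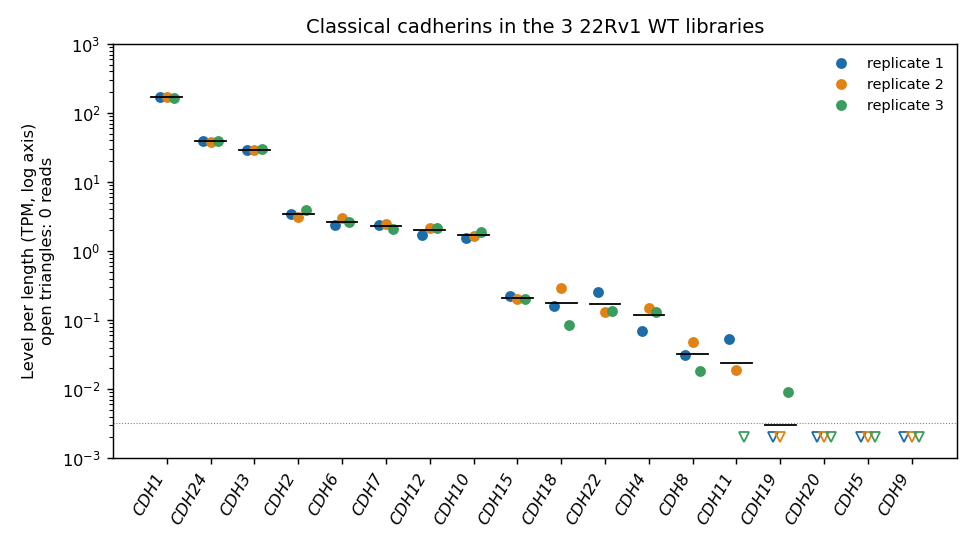
Level per length (TPM, log axis) of the 18 classical cadherins in each 22Rv1 WT library. Points are libraries, bars are means, and open triangles mark 0 reads. CDH1 is the highest, CDH24 and CDH3 follow at 38.8 and 29.4 TPM, and CDH2 lies at 3.50 TPM.

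The catenins link cadherin tails to actin, and 8 of 9 of these partners were expressed. CTNNA1, which encodes alpha-E-catenin, stood at 281 ± 2.78 TPM and CTNNB1, which encodes beta-catenin, at 277 ± 4.37 TPM (SD, n = 3). With all exons merged as the length the levels were 227 and 164 TPM, beside 252 TPM for CDH1, so whether they lie above or below CDH1 depends on the length taken. CTNND1 encodes p120-catenin, which keeps cadherins at the cell surface, and was lower at 10.6 ± 0.764 TPM. CTNNA3, an alpha-catenin of heart and testis, was the lowest of the list with 0, 8 and 0 reads.

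VIM encodes vimentin, the intermediate filament protein of mesenchymal cells. It lies on the plus strand of chromosome 10, at 17270240 to 17279592. The normalized counts were 315.2, 307.2 and 332.2, which is 318.2 ± 12.8 (SD, n = 3). Per length it stood at 10.95 ± 0.313 TPM, above 55.1% of protein-coding genes, whose median was 7.16 TPM. CDH1 exceeded VIM by 3.94 ± 0.05 on the log2 scale of TPM, or 15.3-fold, and 29.2-fold with all exons merged. VIM itself was 3.15 times as high as CDH2. The antisense gene VIM-AS1 overlaps VIM over 1778 bases and had 37, 60 and 71 reads. VIM-AS1 matched 29.8% of the canonical VIM transcript at 100% identity. The strandedness of the counting is not given in the sources used here, so reads in that overlap cannot be told apart. The level of VIM and the ratio of CDH1 to VIM carry this limit. PRPH, the gene of peripherin, is a class III intermediate filament gene of neurons and reached 14.0 ± 1.67 TPM. DES, the muscle member of the same class, had 0 reads in each library.

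Of 12 genes of mesenchymal matrix and cytoskeleton, 5 were expressed and their median was 0.719 TPM, against 7.16 TPM for all protein-coding genes. TNC, which encodes the matrix glycoprotein tenascin-C, was the highest at 33.4 ± 2.71 TPM (SD, n = 3). MMP2, the gelatinase gene, and POSTN, the periostin gene, had 0 reads in each library. VIM and CDH2 thus stood above the median of this list.

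Among the 5 EMT repressors, TWIST1 alone was expressed. TWIST1 is a basic helix-loop-helix factor of mesoderm and cranial mesenchyme that can repress CDH1. The gene is on the minus strand of chromosome 7, at 19060614 to 19157259. Its normalized counts were 707.9, 690.5 and 706.2, and the 3 libraries are nearly level. Per length it stood at 31.9 ± 0.304 TPM (SD, n = 3), above 73.2% of protein-coding genes and above both VIM and CDH2 in every library. TWIST1 made up 95.8% ± 0.962 of the summed TPM of the 5 repressors. High CDH1 and a clearly expressed TWIST1 were thus found in the same libraries. TWIST2, its close paralog, had 0 reads in each library. TCF3, which encodes the E-protein partners of such factors, was the highest of 10 other EMT transcription factors at 58.6 ± 1.18 TPM. Of those 10 genes, 5 were expressed, and GSC, a homeobox gene of the embryonic organizer, also had 0 reads.

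SNAI1 encodes Snail, a zinc finger repressor of CDH1. Its locus is on the plus strand of chromosome 20, at 48599517 to 48605423. The normalized counts were 33.2, 22.8 and 38.6, with replicate 2 the lowest. Its CPM was 1.10, 0.756 and 1.27, so it missed the limit of 1 CPM in replicate 2 only. Per length it stood at 1.37 ± 0.333 TPM (SD, n = 3). TWIST1 exceeded SNAI1 by 4.57 ± 0.37 on the log2 scale of TPM, or 23.8-fold. SNAI3, the remaining member of the family, had 29 reads in each library and 0.999 ± 0.0510 TPM.

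SNAI2, ZEB1 and ZEB2 were all but silent at this depth. SNAI2, which encodes Slug, lies on the minus strand of chromosome 8, at 49830157 to 49834299, and had 1, 0 and 0 reads. Pooled over the libraries this is 0.00915 TPM with an exact Poisson interval of 0.000232 to 0.0510 TPM. ZEB1 lies on the plus strand of chromosome 10, at 31607424 to 31818742, and had 2, 1 and 1 reads. Its pooled level was 0.0134 TPM with an interval of 0.00366 to 0.0344 TPM. ZEB2 lies on the minus strand of chromosome 2, at 145121931 to 145278624, and had 1, 1 and 0 reads. Its pooled level was 0.00430 TPM with an interval of 0.000521 to 0.0155 TPM. These 95% intervals cover counting error only. ZEB1 and ZEB2 encode zinc finger and homeodomain repressors that bind E-boxes in the promoter of CDH1. The upper bounds of all 3 genes lay under the level of SNAI1 in its lowest library, 1.00 TPM. The corepressors that SNAI and ZEB proteins recruit were all expressed, 8 of 8. HDAC1, a histone deacetylase, was the highest at 392 ± 15.1 TPM and CTBP2, a CtBP corepressor, the lowest at 10.5 ± 0.0591 TPM (SD, n = 3).

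**Figure D3:**
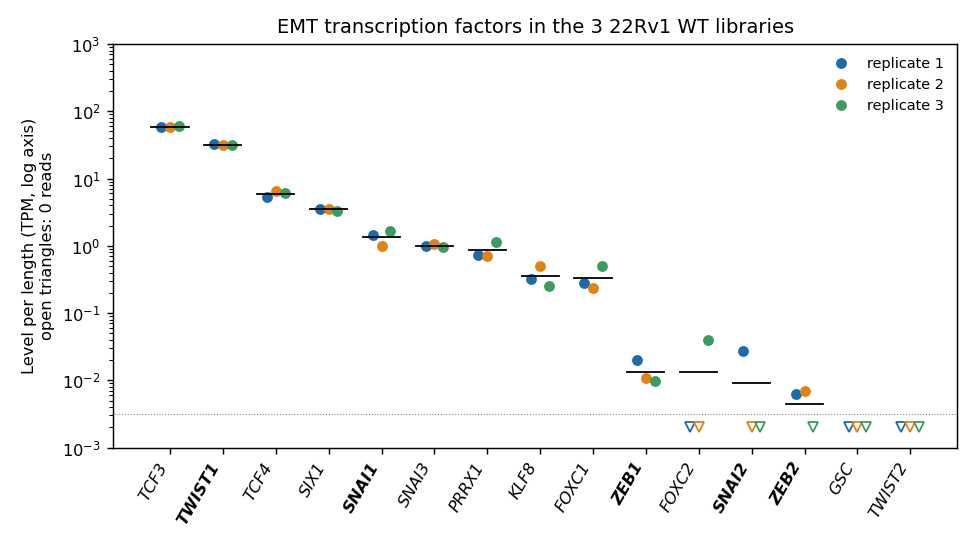
Level per length (TPM, log axis) of 15 EMT transcription factors in each 22Rv1 WT library, with the 5 that belong to the 10 genes in bold. Points are libraries, bars are means, and open triangles mark 0 reads. TCF3 and TWIST1 lie highest, SNAI1 lies between 1.00 and 1.66 TPM, and ZEB1, SNAI2 and ZEB2 lie below 0.03 TPM.

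The microRNAs of the miR-200 family are shown because their seeds, bases 2 to 8, pair with ZEB1 and ZEB2 messages. The mature forms were read from RefSeq on GRCh38.p14, with the seed in capitals, and fall into 2 seed groups that differ at 1 base.
hsa-miR-141-3p: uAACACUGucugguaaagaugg
hsa-miR-200a-3p: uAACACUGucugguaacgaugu
hsa-miR-200b-3p: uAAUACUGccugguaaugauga
hsa-miR-200c-3p: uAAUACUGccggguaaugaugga
hsa-miR-429: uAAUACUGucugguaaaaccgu
The sequence CAGTATT pairs with the seed of miR-200b-3p, miR-200c-3p and miR-429, and CAGTGTT with that of miR-141-3p and miR-200a-3p. Both were searched on the transcript strand of the annotated 3′ UTRs of canonical transcripts. ZEB1 held 6 matches to the first and 3 to the second, in 2540 bases. ZEB2 held 5 and 4 matches in 5370 bases. Of 18708 UTRs of protein-coding genes, 28.7% held any match and 11 genes, or 0.0588%, held 8 or more. These UTRs had a median length of 1088 bases, shorter than those of ZEB1 and ZEB2, and the shares take no account of length. ESRP1 held 2 matches, SNAI2 held 1, and CDH1, EPCAM, CDH2, VIM, SNAI1 and TWIST1 held none. A match is a run of letters and no measured target site. The host transcript of miR-200c and miR-141, MIR200CHG, was expressed with 81, 89 and 69 reads and 13.0 ± 2.25 TPM (SD, n = 3). The rows of the hairpins MIR200A, MIR200B, MIR200C, MIR141 and MIR429 had 0 reads. Mature microRNAs are too short for these libraries, so their amounts were not measured. The host of miR-205, MIR205HG, also had 0 reads.

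The antisense neighbour of ZEB1 did not share its low count. ZEB1-AS1 runs from the start region of ZEB1 in the opposite direction, overlaps the gene over 1953 bases, and had 324, 307 and 285 reads beside the 2, 1 and 1 reads of ZEB1. Its normalized count was 246.7 ± 19.4 (SD, n = 3). Its level per length was 47.9 ± 4.28 TPM over its short canonical transcript and 9.01 TPM over all its exons merged. ZEB1-AS1 was thus expressed where ZEB1 was not. Which strand its reads came from cannot be told without the strandedness of the counting. ZEB2-AS1, the antisense gene at ZEB2, had 0 reads in each library.

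The stretches before 2 starts of ZEB1 also hold a start of ZEB1-AS1, and the one with more E-box matches is shown. In RefSeq, 2 of the ZEB1 starts lie 107 and 121 bases from a ZEB1-AS1 start that faces the other way. The 250 bases before the ZEB1 start of the wider pair, on the plus strand of GRCh38.p14, chr10:31318966-31319215, read as follows, with matches to the E-box CACCTG or its reverse complement CAGGTG in capitals.
ZEB1: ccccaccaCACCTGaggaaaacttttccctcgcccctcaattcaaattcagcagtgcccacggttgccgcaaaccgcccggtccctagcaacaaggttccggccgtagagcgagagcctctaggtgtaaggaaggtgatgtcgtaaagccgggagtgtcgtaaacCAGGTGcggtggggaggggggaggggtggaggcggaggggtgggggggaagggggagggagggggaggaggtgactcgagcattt
Counted from the start, the matches begin at -242 and -85. An E-box of this form is what SNAI and ZEB proteins bind, and a match here is a description of letters only. Of 35116 windows of the same length, 17.5% held at least 1 such match and 2.53% held 2 or more. The window shown was picked for its number of matches, so these shares do not say how unusual it is. The windows of CDH2, VIM and ZEB2 in the same source held none, and neither did that of the narrower ZEB1 pair. Among the other ZEB1 windows, 1 held a match, at -57. CDH1, EPCAM, ESRP1, SNAI1, SNAI2 and TWIST1 were not matched there.

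Because only WT cells were analysed, the test that could be made was whether a gene differed between the 3 libraries by more than the sampling of reads. A chi-square test of homogeneity against TMM-scaled library sizes called 1 of the 7 members with enough reads, CDH2. Every gene averaging 10 reads or more entered the test, and 41.9% of them were called. The members' count, 1 of 7, is below that share, and the members cannot be set apart from other genes by it. CDH2 had a Benjamini-Hochberg adjusted p of 0.0393 in this test. Its call rested on replicates 2 and 3, since the adjusted p was 0.250 without replicate 2 and 0.366 without replicate 3. With the trended dispersion of edgeR added to the sampling noise, 0 members and 0.416% of all genes were called. That dispersion was estimated from these same 3 libraries. The spread under test thus also set the noise allowed, and the second test is no independent check of the first. At an unadjusted p under 0.05 the counts were 1 member by the chi-square test and 0 with the dispersion. The remaining chi-square tests gave Benjamini-Hochberg adjusted p from 0.1003 for ESRP1 to 0.980 for CDH1. By normalized count, replicate 2 was the lowest library for 6 of the 7 members and replicate 3 the highest for 5. By TPM, the lowest library was another one for CDH1, ESRP1 and TWIST1, and the highest was another one for CDH1. EPCAM was highest in replicate 2 and lowest in replicate 3, and TWIST1 was highest in replicate 1. The SD over libraries ran from 0.367% of the mean for CDH1 to 25.5% for SNAI1, the member with the fewest reads of the 7.

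**Figure D4:**
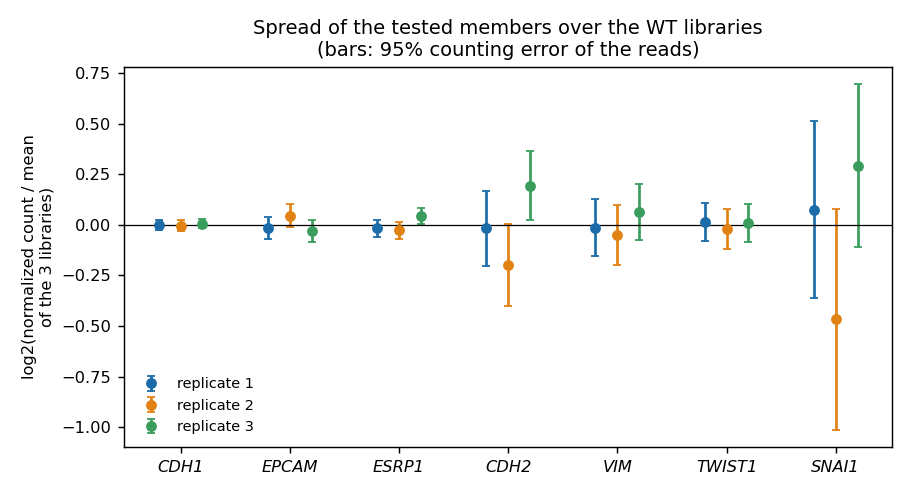
Deviation of each library from the mean of the 3 (log2 of the normalized count over the mean) for the 7 members with enough reads. Points are libraries and bars are the 95% counting error of the reads. CDH2 runs from -0.20 in replicate 2 to 0.19 in replicate 3, SNAI1 has the widest bars, and CDH1 lies within 0.01 of its mean.

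Of 9 epithelial transcription factors and splicing paralogs, 8 were expressed, against the 63.8% of all protein-coding genes. FOXA1, a pioneer factor of luminal prostate cells, was the highest at 271 ± 1.67 TPM, and GRHL3, a grainyhead factor of skin, the lowest at 0.105 ± 0.0405 TPM (SD, n = 3). The median of this list was 18.6 TPM, beside 0.604 TPM for the other EMT transcription factors, 7.16 TPM for all protein-coding genes and 24.6 TPM for the expressed ones. These medians describe the lists and were not tested.

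**Figure D5:**
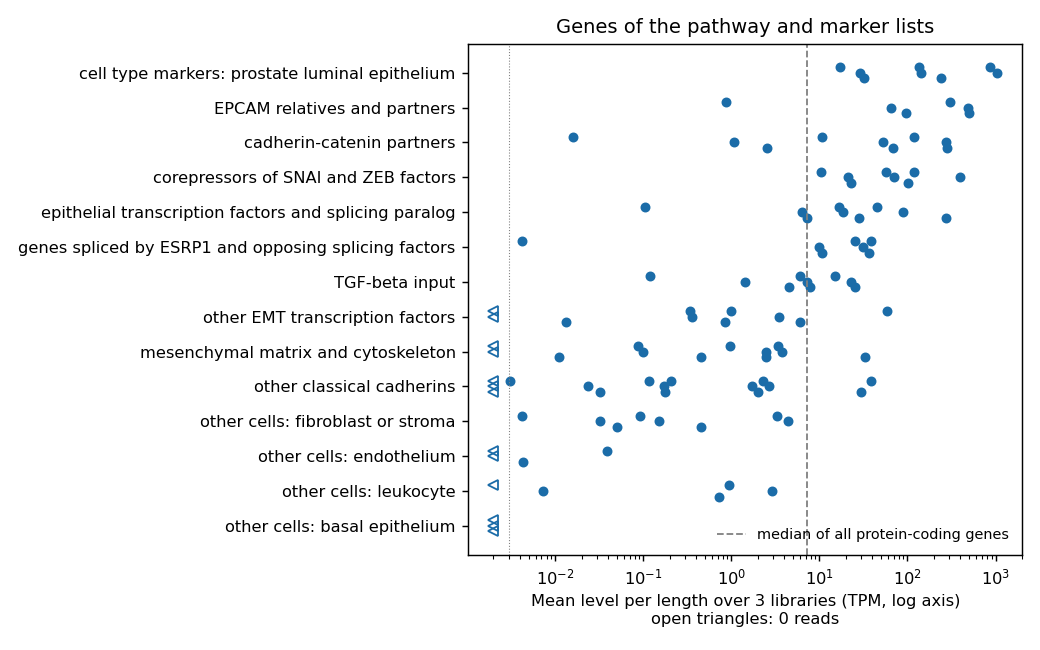
Mean level per length (TPM, log axis) over the 3 libraries for each gene of 14 pathway and marker lists. Each point is a gene, open triangles mark 0 reads, and the dashed line is the median of all protein-coding genes, 7.16 TPM. The luminal, EPCAM partner and corepressor lists lie mostly to the right of the line and the matrix, cadherin and other-cell lists mostly to the left.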

How the data were processed

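The 3 libraries are RNA-seq of 22Rv1 WT cells. The authors mapped 150-base paired-end reads to GRCh37 (hg19) with HISAT2. HTSeq gave counts over GENCODE genes, which they scaled by DESeq2 size factors. What they deposited is thus a signal, a scaled count with 1 decimal. The GENCODE release and the strandedness of the counting are not given in the sources used here.

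Reads were recovered from the step in the deposited values, and 100% came out whole within rounding. Neighbouring rows with equal values in all 3 libraries were merged unless they held no reads, which took away 1976 of 29000 rows. Symbols came from GENCODE annotation lifted to GRCh37 and matched 86.3% of identifiers, with no row for PECAM1 or MIR205. TPM used the canonical transcript length. The test of homogeneity was a chi-square test on reads against TMM sizes (edgeR 4.0.16, R 4.3.3, scipy 1.17.1) on 14646 genes averaging 10 reads or more, called at 0.05 after Benjamini-Hochberg adjustment. It was tested on simulated data that held sampling noise only and no added dispersion. Counting intervals are exact Poisson intervals at 95%. Near-identical copies were searched with minimap2 2.31 (at least 50% of the transcript at 98% identity), and no member had one. DESeq2 1.42.0 gave other size factors.

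The text names every member and, from each list, the highest and lowest gene, genes at 0 reads, ESRP2, SNAI3, TWIST2, CTNNA1, CTNNB1 and CTNND1. A gene that this rule would name is not reported here. Other genes named were chosen after their values were seen. The members and lists were chosen with earlier results of these data known. P-values and SDs measure only the spread between these libraries.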

Additional observations from a re-analysis of the deposited data

How the results depend on the processing

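The normalized counts of the 10 genes moved by less than 1 SD under all 60 alternatives of scaling and of leaving out a library. With 3 libraries, leaving 1 out cannot move a mean by 1 SD. Each other scaling was brought back to the same mean total, so these 60 say little about stability. The levels per length moved by less than 1 SD under 44 of 50, most of which left out a library or rescaled all genes alike. The 6 others came from taking all exons merged as the length, which moved 6 of the 10 genes. It gave 252 TPM for CDH1, 127 for EPCAM, 112 for ESRP1, 8.66 for VIM, 2.60 for SNAI1 and 49.5 for TWIST1. With that length the log2 ratio was 6.35 for CDH1 to CDH2, 4.87 for CDH1 to VIM and 2.94 for the 3 epithelial genes to the 7 others. As ratios of normalized counts without length they were 5.85, 5.10 and 3.77. None of these 3 ratios changed sign. Among 5 other ratios, tried with the merged length after seeing the data, that of ESRP2 to ESRP1 went from 0.22 to -0.01. Between 6 and 8 members were expressed over 7 other limits and omissions. The count of members that differed between libraries was 0 with edgeR's trended dispersion and 0 to 1 when a library was left out, with 0 without replicate 2 and 0 without replicate 3. CDH2, the member called, had Benjamini-Hochberg adjusted p from 0.0202 to 0.366 with a library left out and 1.00 with the dispersion, and it was the only member whose call changed. No paired analysis was possible because only 1 group was analysed.

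The depth limits statements on ZEB1, ZEB2 and SNAI2, with 4, 2 and 1 reads in all, and on the spread of SNAI1. Per-length levels depend on the transcript taken as the length, and unequal coverage along transcripts was not measured.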

Other observations

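TGF-beta is a main extracellular trigger of EMT, and 8 of 9 genes of its input were expressed in the 22Rv1 WT libraries. SMAD7, the inhibitory SMAD that the pathway itself induces, was the highest at 25.6 ± 0.767 TPM, and the ligand gene TGFB2 was the lowest with 10, 19 and 5 reads (SD, n = 3). The type II receptor gene TGFBR2, named after its values were seen, had 99, 117 and 111 reads and 1.44 ± 0.180 TPM. It was the lowest expressed gene of the list.

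The test of homogeneity called 6 of 8 tested luminal markers, 6 of 8 catenins and other cadherin partners, and 2 of 8 corepressors, beside 41.9% of all genes. With the dispersion of edgeR added, 1 gene of all the lists was called, the fibroblast gene DCN, which encodes decorin. It was named after its values were seen and had 26, 1 and 5 reads. The highest fibroblast marker, LUM, which encodes lumican, stood at 4.46 ± 0.481 TPM, CD68 led the leukocyte list at 2.90 ± 0.507 TPM, and TEK led the endothelial list with 5, 4 and 0 reads.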
